A study of Mus musculus with 12 samples.

Results

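Closely neighbouring SssI peaks were ZBTB43 affinity-seq peaks in CpG-methylated lung DNA that had another peak of the same list 200 bp or less away. They were chosen by position alone, as autosomal intervals of the SssI list with an end-to-start gap of at most 200 bp to the nearest other interval, and 4283 of the 169284 autosomal SssI peaks, or 2.53% (95% Wilson confidence interval 2.46 to 2.61%), met this rule. They formed 2119 chains, of which 2078 held 2 peaks, 37 held 3 and 4 held 4. The comparison was with the 34860 autosomal SssI peaks that had no other SssI peak within 10 kb, called isolated peaks here. The peak numbers of the SssI list run to 179666 and skip 3891, and peaks under the skipped numbers were not analysed here, so a neighbour among them is not counted. A skipped number adjoined 21 of the neighbouring peaks, or 0.490% (0.321 to 0.748%), and 918 of the isolated peaks, or 2.63% (2.47 to 2.81%). Because the rule read the SssI positions, SssI gaps, widths and scores are given as a description, whereas the overlap with the TKO list and the sequence of the peaks were not used by the rule.

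In the affinity-seq assay, bacterially made MBP-ZBTB43 (mouse ZBTB43 joined to maltose-binding protein, MBP) was held on magnetic beads and mixed with sheared mouse genomic DNA, and the retained DNA was sequenced. The SssI DNA was lung DNA of wild-type C57BL/6N males, 2 months old, to which the bacterial enzyme M.SssI had added methyl groups at CpGs after shearing. The TKO DNA came from a single clone of male ES cells of the genotype Dnmt1-/-Dnmt3a-/-Dnmt3b-/-, labelled 3.5 dpc, which carry no DNA methyltransferase of these types. MBP without ZBTB43 served as the control on each DNA, with 2 libraries in each of the 4 conditions. The DNAs differed in tissue of origin, genotype and age as well as in CpG methylation, and these cannot be told apart. For each DNA the authors pooled the duplicates and called 1 list of peaks, so that no spread between captures can be given and no test between the DNAs was made. The score of a peak is 10 times the -log10 of its q-value against MBP, and it ranks peaks within 1 list only. Neither list gives reads for its peaks, so the depth under a given peak could not be computed from them.

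ZBTB43 is a zinc finger protein of the BTB family. Runs in which purines and pyrimidines alternate, such as (CA)n or (CG)n repeats, are the sequences that most readily flip from the right-handed double helix into left-handed Z-DNA. Such dinucleotide runs are abundant in the mouse genome, often vary in length between strains and often lie in arrays of several runs with short interruptions. In the following, a tract is a run of at least 12 bp in which purines and pyrimidines alternate on the mm10 (GRCm38) reference, runs of A and T alone being left out.

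The sequences below are the longest tracts of the chains on which the results turn, read from the forward strand of GRCm38, with the tract in capitals between 10 bases of flank in lower case. The pair in intron 17 of Megf6, which encodes a protein with epidermal growth factor-like repeats, is shown because it was among the 3 chains whose weaker member scored highest, and each member lay over its own TKO peak.
Megf6 left member, chr4:154260630-154260727: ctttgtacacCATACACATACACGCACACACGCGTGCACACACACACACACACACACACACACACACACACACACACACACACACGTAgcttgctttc
Megf6 right member, chr4:154261045-154261138: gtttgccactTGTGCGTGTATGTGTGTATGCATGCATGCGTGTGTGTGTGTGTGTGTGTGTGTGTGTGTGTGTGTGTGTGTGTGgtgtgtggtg
The Megf6 tracts were 78 and 74 bp long and held 4 and 2 CpGs.

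A pair in intron 1 of Tshz2, a zinc finger and homeobox gene, is shown because its tracts were alike in length while only the right member lay over a TKO peak. The pair on chromosome 10 outside annotated genes had the highest lower score of all pairs without a TKO peak.
Tshz2 left member, chr2:169935480-169935550: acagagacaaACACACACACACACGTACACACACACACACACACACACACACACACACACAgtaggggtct
Tshz2 right member, chr2:169935916-169935985: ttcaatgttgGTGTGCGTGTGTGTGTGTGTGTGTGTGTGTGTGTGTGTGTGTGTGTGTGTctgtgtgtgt
Chromosome 10 left member, chr10:74710272-74710346: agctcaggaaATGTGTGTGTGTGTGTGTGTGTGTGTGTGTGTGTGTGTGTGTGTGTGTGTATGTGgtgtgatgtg
Chromosome 10 right member, chr10:74711112-74711199: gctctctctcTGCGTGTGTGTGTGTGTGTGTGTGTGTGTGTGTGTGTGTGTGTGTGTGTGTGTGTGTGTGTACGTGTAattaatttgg
On the forward strand the Tshz2 pair reads CA on the left and TG on the right, and the chromosome 10 pair reads TG on both sides.

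The next chains are shown for the likeness of their members, the Syn3 pair having been picked after its values were seen. In the pair in intron 7 of Syn3, a synapsin gene, the tracts of 70 and 68 bp have the same 10 bases on either side. In the chain of 4 peaks in intron 1 of Gm38155 no member held a tract. From each member 1 repeat unit of 62 bp is given, with the CpG inside it in capitals. The unit ends in C and begins with G, so a further CpG, not marked, lies where a unit meets the next.
Syn3 left member, chr10:86097115-86097204: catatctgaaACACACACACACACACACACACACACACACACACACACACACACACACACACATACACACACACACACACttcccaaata
Syn3 right member, chr10:86097508-86097595: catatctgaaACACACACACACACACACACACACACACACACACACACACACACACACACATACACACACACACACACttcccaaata
Gm38155 member 1, chr1:187353457-187353518: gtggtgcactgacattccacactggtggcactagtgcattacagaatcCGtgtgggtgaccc
Gm38155 member 2, chr1:187354015-187354076: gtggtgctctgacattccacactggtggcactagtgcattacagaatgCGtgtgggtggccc
Gm38155 member 3, chr1:187354325-187354386: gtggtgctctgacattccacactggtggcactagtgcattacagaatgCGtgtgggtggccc
Gm38155 member 4, chr1:187354821-187354882: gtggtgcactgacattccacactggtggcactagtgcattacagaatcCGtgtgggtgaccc
Across the 1567 bp of the Gm38155 chain, 97.9% of bases equalled the base 62 bp further on.

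The gaps inside chains ran from 51 to 200 bp, with a median of 128 bp and 2164 gaps in all. The number of gaps was much the same at each size, with 703 gaps of up to 100 bp, 728 above this and up to 150 bp and 733 from there to 200 bp, and 764 gaps followed in the next 50 bp outside the limit. No gap of 50 bp or less was present in either list. Reads were 50 bp long and peaks were called at default parameters, and the part of the peak caller in this lower limit was not tested. Fragments averaged 200 bp, and the midpoints of neighbouring peaks lay 351 bp apart at the median (interquartile range 301 to 411 bp). Whether both peaks of a pair were captured on the same DNA fragments was not tested. Between the longest tracts of neighbours lay 304 bp (254 to 372 bp). A chain spanned 563 bp at the median (485 to 690 bp), and the longest spanned 2717 bp.

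**Figure D1:**
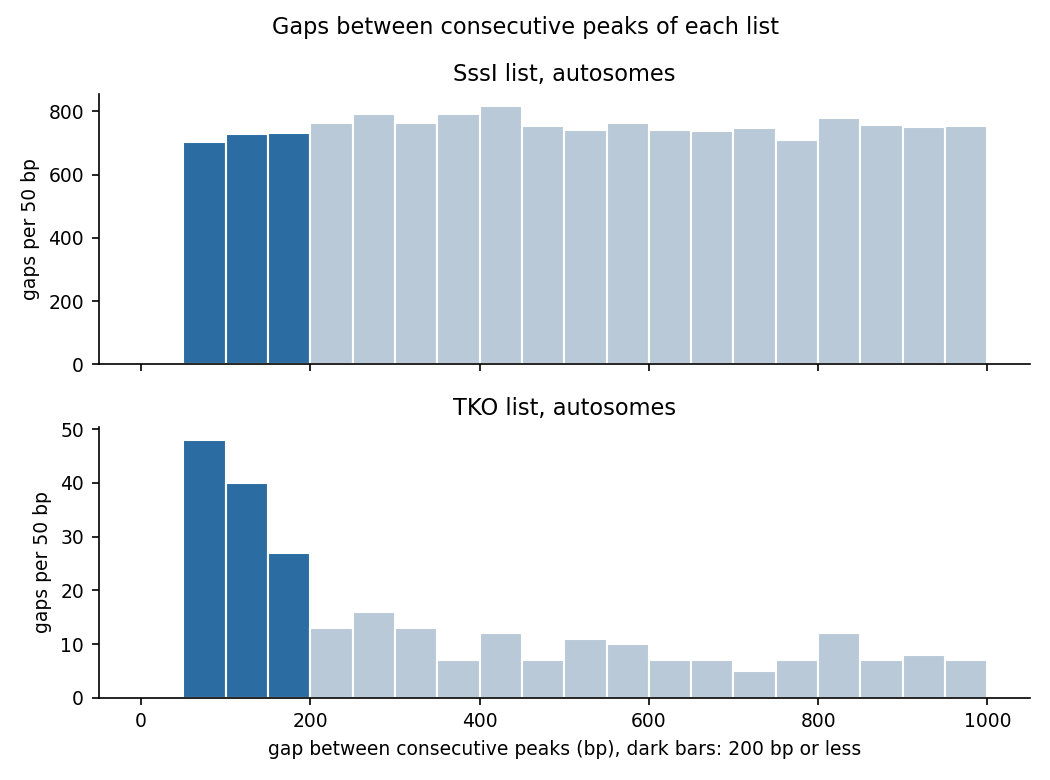
Number of gaps between consecutive autosomal peaks per 50 bp of gap size, up to 1000 bp, for the SssI list (upper panel) and the TKO list (lower panel); the axes of the panels differ. Dark bars mark gaps of 200 bp or less. SssI bars are level from 51 bp onwards, whereas the TKO bars fall from 48 gaps of up to 100 bp to 13 gaps in the first 50 bp beyond 200 bp.

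The TKO list, in which 14554 autosomal peaks were present, showed another pattern of gaps. It held 115 gaps of 200 bp or less, and they were most numerous at the smallest sizes, with 48 gaps of up to 100 bp, 40 above this and up to 150 bp and 27 from there to 200 bp. Of these 115 close TKO pairs, 112 lay over 1 shared SssI peak, and 3 lay over 2 neighbouring SssI peaks. Conversely, a TKO peak that covered more than 1 SssI peak was found once.

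Neighbouring peaks were 205 bp wide at the median (quartiles 166 and 266 bp) and scored 109 (62 and 238), and isolated peaks were 192 bp wide (156 and 230 bp) and scored 101 (61 and 211). The scores of members ran from 13 to 2325 and their widths from 120 to 2053 bp. Within a chain the scores were nearly unrelated, with a Spearman correlation of 0.07 over the 2164 consecutive pairs, against 0.03 over the 12170 pairs with gaps of over 200 and up to 1000 bp and 0.02 over the 81777 pairs with gaps of over 1000 and up to 10000 bp. These points share a capture and a genomic neighbourhood and are not independent. In the 2053 chains of 2 with unequal scores, the higher-scoring and lower-scoring members had median scores of 194 and 71 and median widths of 234 and 179 bp. The longest tract had a median of 46 bp in the stronger and 42 bp in the weaker member, and a tract was present in 97.6% and 97.0% of them.

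The 291 peaks whose nearest gap fell in the last 10 bp inside the limit had a median score of 120, a median width of 202 bp and a median longest tract of 45 bp. The 303 peaks with a nearest gap in the first 10 bp beyond it had a median score of 114, a median width of 198 bp and a median longest tract of 43 bp. The shares over a TKO peak were 13.4% (9.96 to 17.8%) and 11.2% (8.14 to 15.3%). Values on both sides of the limit were close.

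Of the 4283 neighbouring peaks, 351 overlapped a TKO peak by at least 1 bp, a share of 8.20% (7.41 to 9.05%), beside 8.47% over all autosomal SssI peaks. The share was 7.17% (6.91 to 7.45%) in isolated peaks, 9.35% (8.98 to 9.74%) in peaks with their nearest neighbour at over 200 and up to 1000 bp and 8.71% (8.54 to 8.88%) at over 1000 and up to 10000 bp. The interval of the members included 8.47% and 8.71%, and it overlapped that of the class at over 200 and up to 1000 bp. The difference between neighbouring and isolated peaks was 1.02 percentage points (Newcombe 95% interval 0.192 to 1.92). Members of 1 chain are not independent, and with only the leftmost member of each chain the share was 7.88% (6.81 to 9.11%) and the difference 0.710 points with an interval of -0.398 to 1.963, which includes 0. All intervals cover counting error over peaks and not the variation between captures.

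Within score deciles the intervals of neighbouring and isolated peaks overlapped. In the highest decile of the autosomal SssI list by score, 284 of 414 neighbouring peaks lay over a TKO peak, or 68.6% (64.0 to 72.9%), against 68.5% (66.8 to 70.1%) of isolated peaks. In the second decile the shares were 10.8% (8.22 to 14.1%) and 10.9% (9.88 to 12%), and in the third 2.55% (1.43 to 4.51%) and 2.21% (1.76 to 2.76%). In the fourth they were 1.38% (0.634 to 2.98%), or 6 of 435, and 0.724% (0.491 to 1.07%), with overlapping intervals. From the fifth decile down, a TKO peak lay over 3 of 2568 neighbouring peaks, a share of 0.117% (0.0397 to 0.343%), beside 0.128% (0.0885 to 0.185%) of isolated peaks. Weighted to the score deciles of the neighbouring peaks, the isolated peaks had a share of 8.10%.

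**Figure D2:**
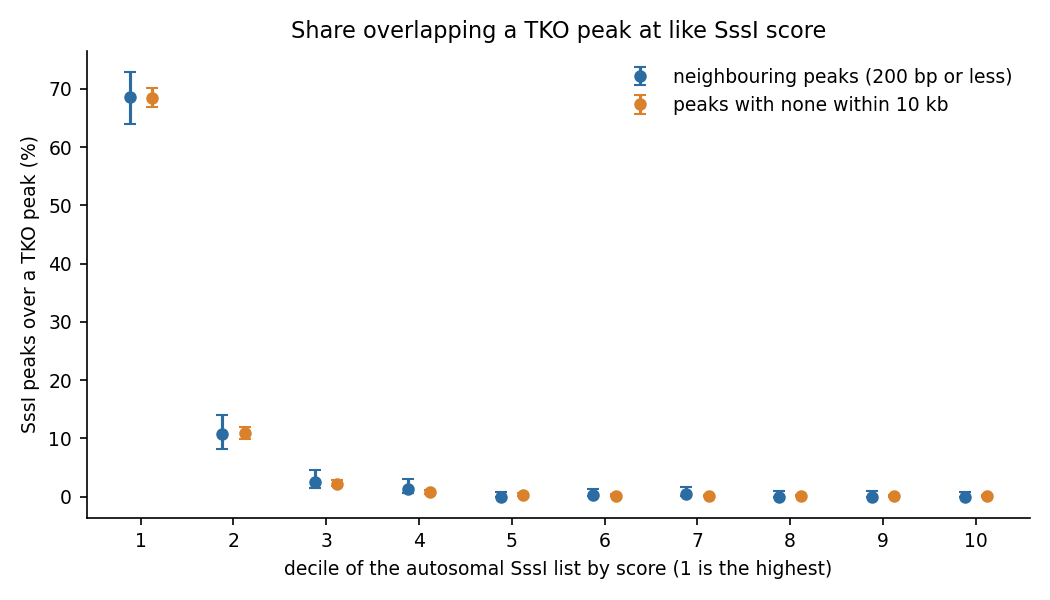
Share of SssI peaks that overlap a TKO peak (%) in each decile of the autosomal SssI list by score, for neighbouring peaks (blue) and isolated peaks (orange). Points are shares and bars Wilson 95% intervals, and the intervals of the groups overlap in every decile, with 68.6% and 68.5% in the highest.

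Width gave another picture. In the widest quintile of the list, 29.6% of neighbouring peaks (27.0 to 32.4%) and 39.2% of isolated peaks (37.9 to 40.5%) lay over a TKO peak. The neighbouring peaks of this quintile also had lower scores, with a median of 466 against 674, at median widths of 363 and 350 bp, and the part of the score in this difference was not tested. Weighted to the width quintiles of the neighbouring peaks, the isolated peaks had a share of 10.8%. By number of CpGs in the peak the neighbouring share rose from 2.62% (1.90 to 3.61%) without a CpG to 6.28% with 1 to 2, 13.9% with 3 to 5 and 28.3% (23.8 to 33.3%) with 6 or more. The isolated peaks had 2.76%, 5.75%, 13.3% and 25.7% (24 to 27.5%) in the same order, with overlapping intervals in every class.

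Inside the chains of 2, a TKO peak usually lay over 1 member or neither. Of the 2078 chains of 2, 1763 had no member over a TKO peak, 285 had 1, or 13.7% (12.3 to 15.3%), and 30 had both, or 1.44% (1.01 to 2.05%). In 29 of these 30 the members lay over separate TKO peaks. Of the 323 consecutive neighbouring pairs with at least 1 member over a TKO peak, both were over one in 30, or 9.29% (6.58 to 12.9%). For consecutive peaks over 200 and up to 1000 bp apart this share was 6.39% (5.43 to 7.51%), an overlapping interval, and at over 1000 and up to 10000 bp it was 5.58% (5.21 to 5.97%). The share of pairs with at least 1 member over a TKO peak was 11.7% (9.50 to 14.2%) at gaps of up to 100 bp, 15.7% (13.2 to 18.5%) at over 100 and up to 150 bp and 17.3% (14.8 to 20.2%) at over 150 bp.

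Where 1 member of a pair lay over a TKO peak, it was nearly always the one with the higher SssI score. This held in 275 of the 285 pairs, or 96.5% (93.7 to 98.1%), with a median score of 1209 (799 to 1532) for the member over the TKO peak and 96 (63 to 183) for its partner. The member over the TKO peak was also the wider one in 267 pairs, or 93.7% (90.2 to 96.0%), at median widths of 434 and 189 bp. Tract length did not sort the members in this way. The member over the TKO peak had the longer tract in 150 pairs, or 52.6% (46.8 to 58.4%), the shorter one in 128 and an equal one in 7, and both medians were 45 bp. It held more CpGs in 185 pairs, or 64.9% (59.2 to 70.2%), fewer in 63 and as many in 37, with medians of 3 and 1. A wider peak has room for more CpGs, and the 2 measures were not separated. In isolated peaks TKO overlap also went with SssI score, with 68.5% in the highest decile and 0.128% from the fifth decile down. By width it was 39.2% of isolated peaks in the widest quintile and 0.105% in the narrowest. The order of scores was not computed for pairs further apart, so it is not shown to be particular to neighbouring pairs.

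**Figure D3:**
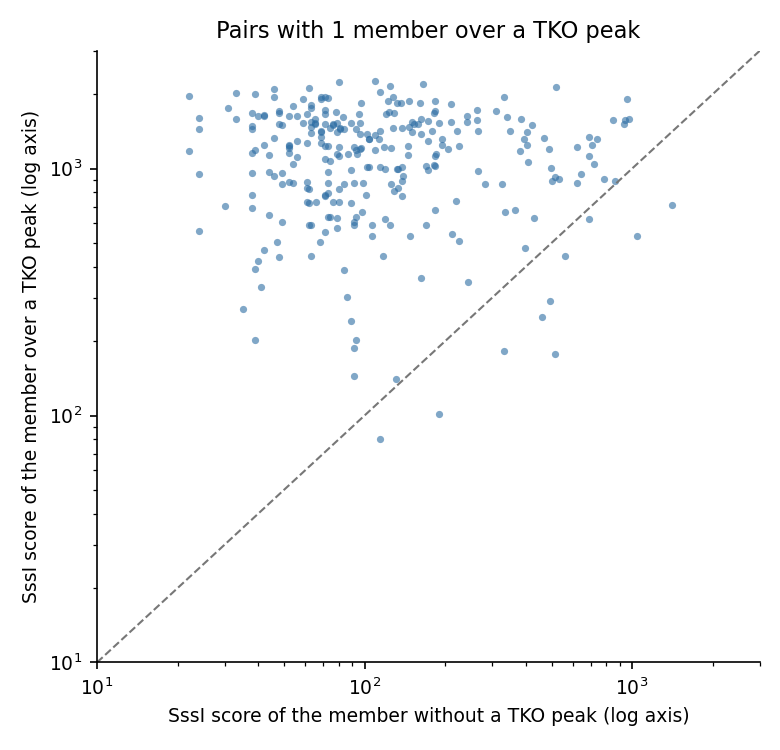
SssI score of the member that overlaps a TKO peak (vertical log axis) against that of its partner without a TKO peak (horizontal log axis), 1 point for each of the 285 chains of 2 with 1 such member. The dashed line marks equal scores, and 275 points lie above it.

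Unlike most chains, the 3 with the highest lower score had a TKO peak over each member. TKO overlap went with SssI score in single peaks too, with 68.5% of isolated peaks in the highest score decile. In Megf6, the peaks at 154260332 to 154260860 and 154260946 to 154261787 of chromosome 4 lay 85 bp apart, scored 1676 and 1547 in the SssI list, and held 11 and 12 CpGs. The TKO peaks over the Megf6 pair were unlike, with scores of 137 and 1403 in the TKO list and widths of 245 and 679 bp. On chromosome 3, the intergenic peaks at 128566022 to 128566567 and 128566704 to 128567136 scored 1532 and 2101, with TKO peaks scoring 1543 and 1302. In both pairs the member with the higher SssI score had the TKO peak with the lower TKO score. This order did not hold in every pair with separate TKO peaks, and it was not tested over them as a set. The Megf6 and chromosome 3 pairs were among the 3 chains with the highest lower score, which were also the 3 highest with separate TKO peaks.

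The 3 pairs with the highest lower score among those without a TKO peak scored 799 to 840, 768 to 829 and 721 to 830. They lay on chromosome 10 at 74710180 to 74711231 and at 72796308 to 72797169, both outside annotated genes, and on chromosome 14 at 75523179 to 75523961 in intron 1 of Siah3. Their gaps of 195, 199 and 146 bp were wider than those of the Megf6 and chromosome 3 pairs, 85 and 136 bp. Over all neighbouring pairs the order was the other way. The share with at least 1 member over a TKO peak was 11.7% at gaps of up to 100 bp and 17.3% at over 150 bp. The longest tracts in the 3 pairs without a TKO peak ran from 12 to 68 bp.

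Among the chains of 4, the one on chromosome 7 at 24367387 to 24369171, outside annotated genes but in the 3000 bp before a transcription start site, had scores of 164, 1934, 157 and 39 from left to right. Only the strongest member lay over a TKO peak, which scored 1098. The longest tracts were 50, 49, 45 and 27 bp, and the first 2 members, with tracts of 50 and 49 bp, ranked far apart in score.
Chromosome 7 member 1, chr7:24367462-24367531: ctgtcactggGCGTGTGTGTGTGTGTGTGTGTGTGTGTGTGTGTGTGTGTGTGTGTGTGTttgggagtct
Chromosome 7 member 2, chr7:24367896-24367964: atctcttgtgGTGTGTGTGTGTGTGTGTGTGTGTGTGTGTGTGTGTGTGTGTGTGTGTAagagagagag
Chromosome 7 member 3, chr7:24368616-24368680: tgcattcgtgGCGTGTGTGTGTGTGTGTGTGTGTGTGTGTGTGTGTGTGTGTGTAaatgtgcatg
Chromosome 7 member 4, chr7:24369041-24369087: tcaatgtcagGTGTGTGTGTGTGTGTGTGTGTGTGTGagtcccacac
The strongest member held 9 tracts of 12 bp or more and the other 3 members 1 each, and they are printed because the first 3 longest tracts differ little while the scores do not follow them. The other named chains of 4 held no tract in any member. The Gm38155 chain, on chromosome 1 at 187353457 to 187355023, scored 54, 33, 28 and 52, with 13, 6, 10 and 10 CpGs. The chain on chromosome 14 at 13139510 to 13141768, outside annotated genes, scored 89, 28, 135 and 137. Neither had a TKO peak.

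**Figure D4:**
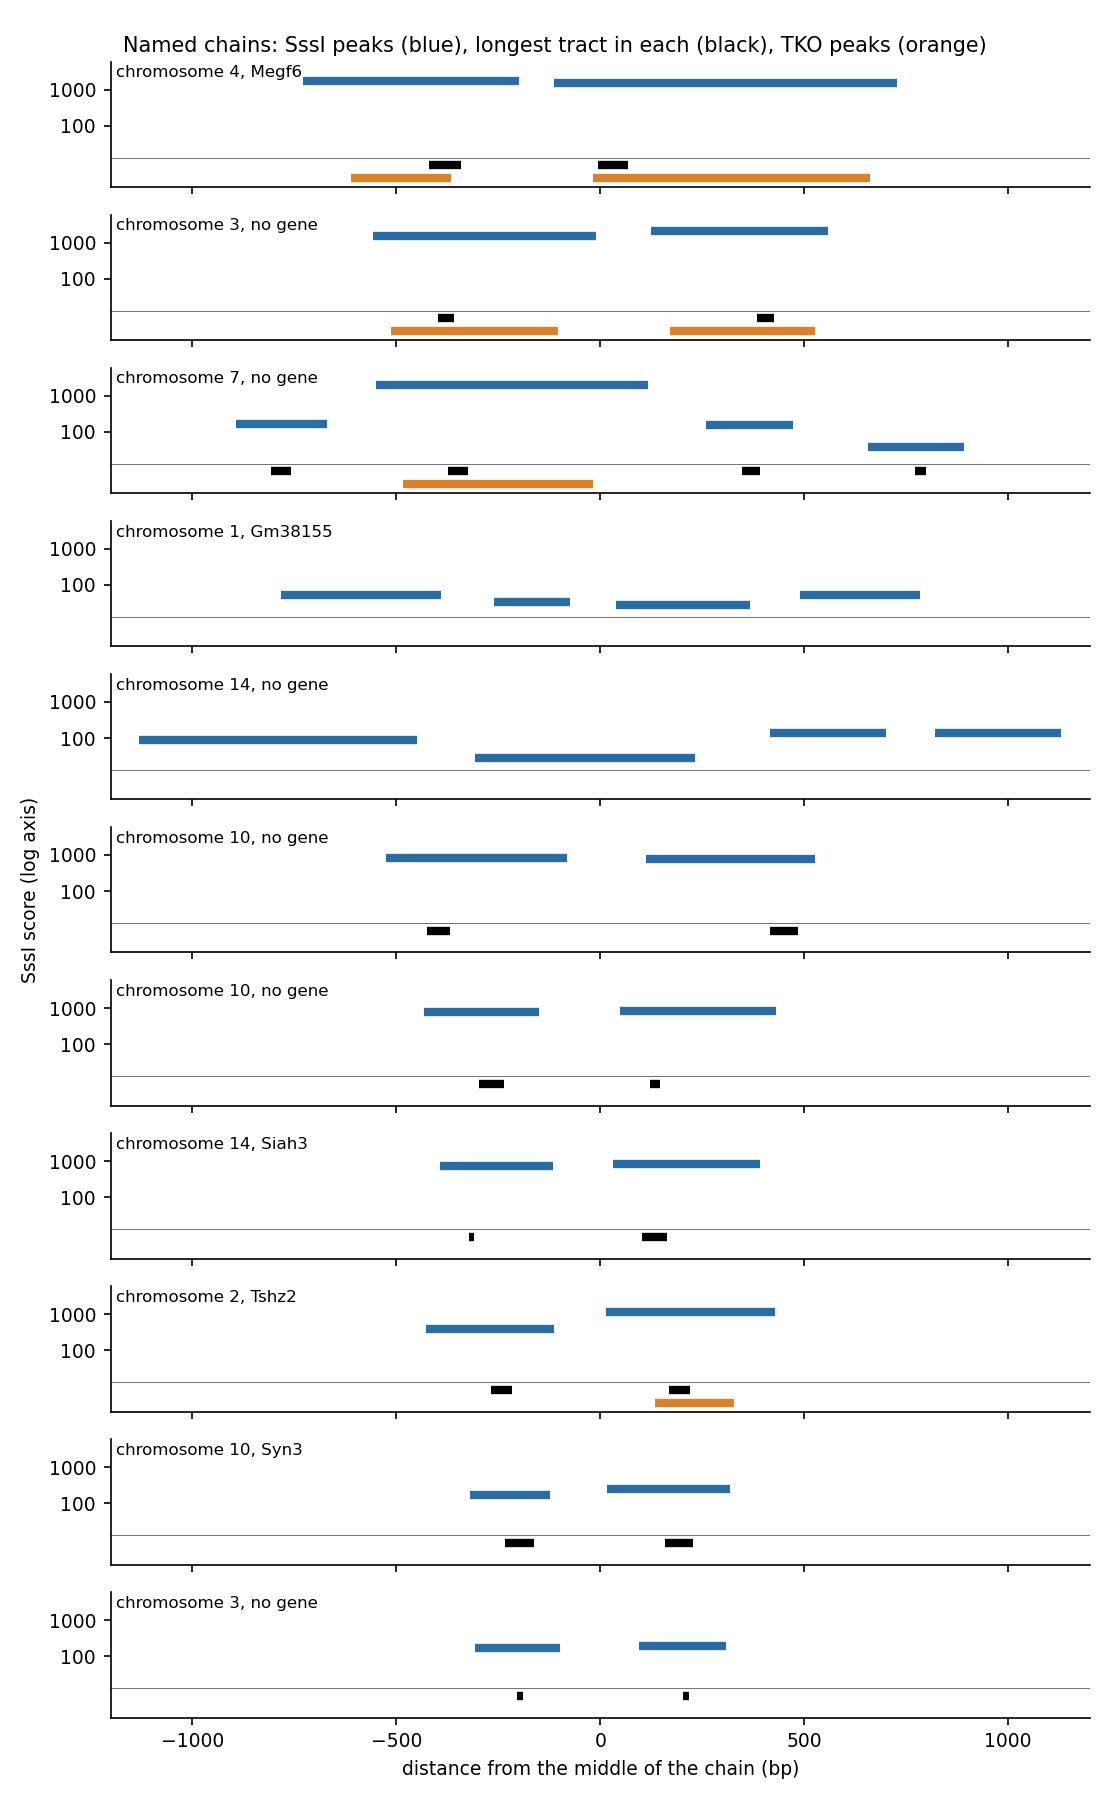
Named chains drawn to scale around their middle (horizontal axis, bp), each panel labelled by chromosome and gene. Blue lines are SssI peaks at their SssI score (vertical log axis, thin line at the lowest score of 13), black lines the longest tract of each peak and orange lines TKO peaks, the height of the black and orange lines having no meaning. Of the 4 peaks on chromosome 7 the one with a score of 1934 has a TKO peak, and the chains of 4 on chromosomes 1 and 14 have neither tracts nor TKO peaks.

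Tracts were somewhat less common in neighbouring peaks than in isolated ones. A tract of at least 12 bp was present in 4146 of the 4283 members, or 96.8% (96.2 to 97.3%), against 98.6% (98.5 to 98.8%) of isolated peaks, a difference of -1.85 percentage points (-2.43 to -1.34), and of -1.53 points (-2.34 to -0.884) with 1 member of each chain. The longest tract was 43 bp at the median (31 to 52 bp) in members and 46 bp (37 to 55 bp) in isolated peaks. A (CA)n run of at least 12 bp on either strand was present in 87.3% of members (86.3 to 88.3%) and 95.1% of isolated peaks (94.9 to 95.3%). The classes between them had 92.7% at over 200 and up to 1000 bp and 94.0% at over 1000 and up to 10000 bp, so the share fell step by step towards small gaps. A (CG)n run of at least 12 bp was rare in both, with 0.911% (0.667 to 1.24%) and 1.14% (1.04 to 1.26%). Runs of (CACG)n of at least 16 bp were present in 16 members, or 0.374% (0.230 to 0.606%), and in 0.763% (0.677 to 0.860%) of isolated peaks.

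Although their longest tract was shorter, members held more tracts than isolated peaks. Members held 2.81 tracts on average and isolated peaks 2.14, and 52.4% of members (50.9 to 53.9%) held 2 or more against 44.0% (43.4 to 44.5%). Peaks with a neighbour at over 200 and up to 1000 bp had 2.61 tracts on average, and 49.4% held 2 or more. At over 1000 and up to 10000 bp these values were 2.48 and 47.7%. Among peaks 180 to 220 bp wide the difference between members and isolated peaks was smaller, with 40.8% (38.0 to 43.7%) of 1147 members and 38.1% (37.2 to 39.0%) of isolated peaks, and the tract share was 97.8% and 99.4%. There the intervals for 2 or more tracts overlapped, and the longest tract had a median of 47 bp in members and 48 bp in isolated peaks. The centre of the longest tract lay within 50 bp of the centre of the peak in 81.5% of members (80.3 to 82.6%) and 89.9% of isolated peaks (89.6 to 90.3%). In chains of 2 it lay on the side of the peak facing the partner in 45.3% (43.8 to 46.9%) of 4008 members, so that longest tracts lay slightly more often on the outer side.

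Neighbouring peaks more often resembled each other in sequence than peaks further apart. Likeness was taken as the share of 12-base words of the member with fewer such words that its partner also held on either strand. Words that were wholly a repeat of a unit of 1, 2 or 4 bases were left out, so unbroken CA runs did not count. Words across an interruption or the edge of a run were kept, so broken runs in both members could raise the likeness. The likeness was at least 20% in 137 of 2162 neighbouring pairs, or 6.34% (5.39 to 7.44%), against 1.25% (1.07 to 1.46%) of consecutive peaks over 200 and up to 1000 bp apart and 0.262% (0.229 to 0.299%) at over 1000 and up to 10000 bp. It was at least 50% in 2.498%, 0.403% and 0.0612% of them. Among neighbouring pairs the share fell with the gap, from 10.1% (8.11 to 12.6%) at up to 100 bp to 5.22% (3.83 to 7.08%) at over 100 and up to 150 bp and 3.82% (2.66 to 5.47%) at over 150 bp.

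Picked after their values were seen for high likeness, 2 pairs show it at single loci. The Syn3 pair, at 86097040 to 86097676 of chromosome 10, shared 100% of its words over a gap of 141 bp, and scored 167 and 253. The pair at 87897253 to 87897868 of chromosome 3, outside annotated genes, shared 99.0% over a gap of 193 bp, with a tract of 15 bp in each member and scores of 177 and 193. Neither pair had a TKO peak.

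The members without a tract were concentrated in the pairs that were alike. In pairs with a likeness of at least 20%, 69.0% of members (63.3 to 74.2%) held a tract, against 98.7% (97.6 to 99.3%) at a likeness of 5 to under 20% and 98.5% (98.0 to 98.8%) at less than 5%, where the share was near that of isolated peaks. Of 45 pairs with no tract in either member, 39 were alike at 20% or more. The 137 members without a tract scored 58 at the median and the 4146 with one scored 109.5. Of the tract-free members 10.9% (6.75 to 17.3%) lay over a TKO peak, against 8.10% (7.31 to 8.97%) of the members with a tract and 19.3% (16 to 23.1%) of the 471 isolated peaks without a tract. Pairs that were alike at 20% or more had a TKO peak over at least 1 member in 10 of 137 cases, or 7.30% (4.01 to 12.9%), whereas the share was 14.7% (13.1 to 16.5%) in pairs sharing less than 5%. Their median lower and higher scores were 54 and 143, against 69 and 183.

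Tract lengths of neighbours were weakly related, with a Spearman correlation of 0.22 over the neighbouring pairs, 0.06 at over 200 and up to 1000 bp and 0.03 at over 1000 and up to 10000 bp. Over the 1651 neighbouring pairs sharing less than 5% of their words it was 0.12, and over those sharing at least 20% it was 0.82. Where both members held a (CA)n run, the runs lay on the same strand in 909 of 1702 pairs, or 53.4% (51 to 55.8%), against 50.1% (49.2 to 51.1%) at over 200 and up to 1000 bp. With runs of at least 24 bp it was 574 of 1122 neighbouring pairs, or 51.2% (48.2 to 54.1%), an interval that includes 50%. In the pairs alike at 20% or more it was 39 of 44, or 88.6% (76.0 to 95%), and in the rest 52.5% (50.1 to 54.9%).

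The gap between neighbouring peaks also held tracts. A tract lay within the gap in 433 of 2164 pairs, or 20.01% (18.4 to 21.7%), against 9.98% (8.79 to 11.3%) in windows of the same length to the left of the pair and 10.1% (8.88 to 11.4%) to the right. A gap touches a peak at both ends and an outer window at 1 end only. The smallest gaps held tracts most often, with 24% (21.0 to 27.3%) at up to 100 bp and 16.2% (13.7 to 19.1%) at over 150 bp, although they are the shortest. In pairs sharing less than 5% of their words, a comparison added after the data were seen, the share was 13.1% (11.5 to 14.8%). It was 40.9% (36.0 to 46.0%) at a likeness of 5 to under 20% and 46.7% (38.6 to 55.0%) at 20% or more. The gaps held 0.643 CpGs per 100 bp, fewer than the outer windows with 0.814 and the members themselves with 0.803. Soft-masked bases, those that the reference marks as repeats, made up 35.6% of the gaps, 25.9% of the outer windows and 62.7% of the members.

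**Figure D5:**
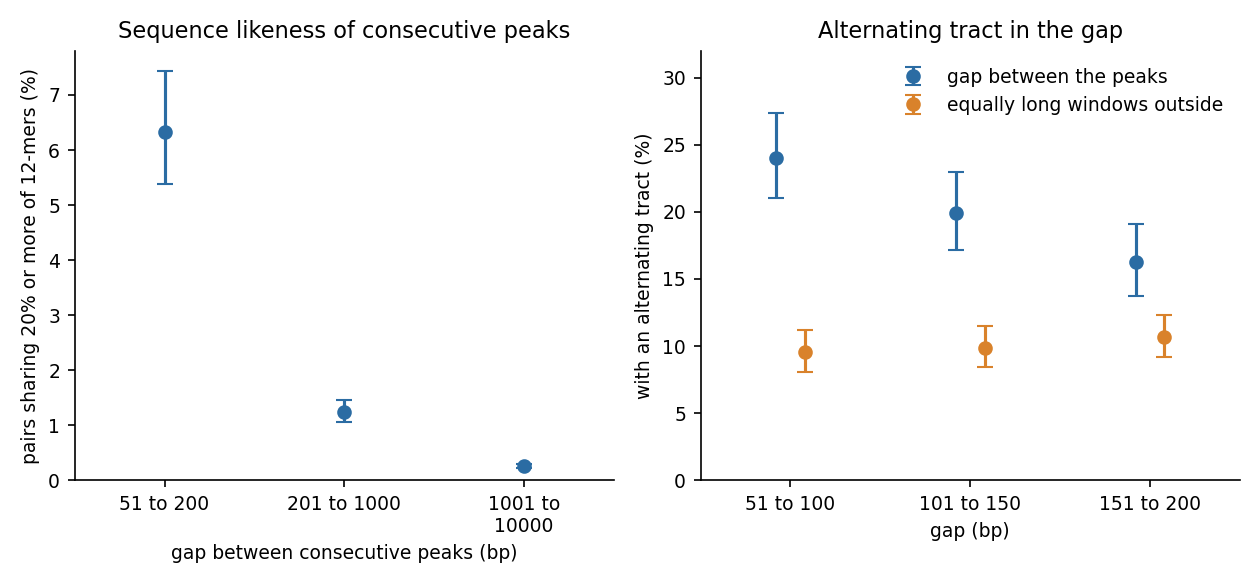
Left, share of consecutive SssI peaks that share at least 20% of their 12-base words (%), by gap between them. Right, share of gaps (blue) and of equally long windows just outside the pair (orange) with a tract of at least 12 bp (%), by gap size, with Wilson 95% intervals in both panels. The left share falls from 6.34% to 0.262%, and gaps of up to 100 bp held a tract in 24% of cases against 9.53% of the windows.

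In 9 neighbouring pairs a single tract ran across the whole gap from one peak into the other. One of these, at 98494804 to 98496256 of chromosome 13 and picked after its values were seen, had a gap of 196 bp that was 1 uninterrupted (TG)n run. Its members scored 673 and 982, with tracts of 555 and 100 bp inside them that held 20 and 0 CpGs, and each lay over its own TKO peak, with TKO scores of 1340 and 374.

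Members held no CpG in 32% of cases (30.7 to 33.4%), against 36.3% (35.8 to 36.8%) of isolated peaks, 29.8% (29.2 to 30.4%) at over 200 and up to 1000 bp and 30.3% (30.1 to 30.6%) at over 1000 and up to 10000 bp. Per length the groups were nearly equal, with 0.803 CpGs per 100 bp in members and 0.810 in isolated peaks. The isolated peaks had the highest share without a CpG of the 4 distance classes.

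The shares of neighbouring peaks differed between autosomes, from 1.91% of SssI peaks on chromosome 12 (1.63 to 2.24%) to 3.39% on chromosome 5 (3.08 to 3.74%). Chromosome 5 also had the highest number of SssI peaks per megabase, 76.7, where chromosome 12 had 65.3. Density did not order the autosomes throughout, since chromosome 15 had 64.1 SssI peaks per megabase and a share of 2.93%. By the midpoint of the peak on the GENCODE M21 annotation, 45.1% of members (43.6 to 46.6%) lay in introns, 45.5% (44.0 to 47.0%) in intergenic sequence and 8.52% (7.72 to 9.40%) in promoters, taken as the 3000 bp before a transcription start site. Isolated peaks had 40.8% (40.2 to 41.3%), 48.0% (47.5 to 48.5%) and 9.50% (9.19 to 9.81%). The peaks at over 200 and up to 1000 bp had 45.2% in introns and those at over 1000 and up to 10000 bp 44.8%, so the members did not differ from them by more than their interval. Exons held 22 members, or 0.514%, 3' UTRs 15, or 0.350%, and 5' UTRs 0 of 4283, which allows a share of up to 0.0700% when the limit is set at 3 counts. Isolated peaks had 0.866%, 0.849% and 0.0258% in the same order, and peaks at over 200 and up to 1000 bp 0.631%, 0.396% and 0.0261%. Both of these 5' UTR shares lie below the limit for members.

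The midpoints of 1091 of the 2119 chains, or 51.5% (49.4 to 53.6%), lay in an annotated gene, and 919 genes held at least 1 chain. The most chains, 12, lay in Gm20388, a gene model of 4435 kb on chromosome 8. Next came Rbms3, which encodes an RNA-binding protein, with 8, Cdh13, which encodes a cadherin anchored to the membrane by a lipid, with 7, and Tshz2 and Rbfox1, a regulator of RNA splicing, with 5 each. Long genes hold many SssI peaks, and the share of them with a neighbour was 24 of 422 in Gm20388, 16 of 195 in Rbms3, 14 of 169 in Cdh13, 10 of 85 in Tshz2 and 10 of 212 in Rbfox1. These genes were ranked by their chains, so the shares are given without a comparison.

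Among 13 genes with affinity-seq regions displayed before, 3 had a chain inside or within 20 kb. Tshz2 had 5 chains, all in its intron 1, with 1 TKO peak over them. The Tshz2 chain at 169935329 to 169936183 of chromosome 2, whose tracts are printed above, scored 380 and 1174, and the TKO peak over its right member scored 89. Another, at 169978974 to 169979685, scored 139 and 816 without a TKO peak, with tracts of 54 bp without a CpG and 81 bp with 7 CpGs. The other 3 Tshz2 chains scored between 91 and 479. Hhat, which encodes the enzyme that attaches palmitate to Hedgehog proteins, had 1 chain in its intron 4 that scored 150 and 177. A chain in intron 10 of the adjacent potassium channel gene Kcnh1 scored 55 and 80, and one on the other side, outside annotated genes, scored 63 and 690. In Mxi1, which encodes a partner of MAX that opposes MYC, the pair at 53312305 to 53312672 of chromosome 19 scored 91 and 42, and none of the Hhat and Mxi1 chains had a TKO peak. The other 10 genes, Eml1, Rps6kl1, Arid2, Ago2, Src, Shq1, Pcdh7, Dhx35, Pdzd2 and Cngb3, held 3 to 38 SssI peaks each and had no chain in this range.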

How the data were processed

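The deposited SssI and TKO lists were used, 1 for each DNA, from 8 of the 12 libraries; the 4 sperm libraries were not analysed here. Per the methods and the submitters' processing notes, the authors aligned reads to mm10 with BWA 0.7.17, pooled duplicates and called peaks with MACS2 2.2.7.1 at default parameters against MBP. The deposited score of each peak is 10 times the -log10 q-value by that caller's convention. The lists give no reads for each peak, so the depth under a peak could not be computed, and intervals cover counting error over peaks only. Any reads shared between nearby peaks cannot be told from the lists.

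The members and lists were chosen with earlier results of these data known. Gaps, chains and overlaps were computed with Python 3.11.15, numpy 2.4.6 and pandas 2.3.3, and tested on simulated data together with the search for tracts. Tracts were sought within each peak, so one that crosses an edge counts only by its part inside. Sequences are from GRCm38 (RefSeq) and genes from GENCODE M21, a coding and then a longer gene taking precedence. Shares carry Wilson and differences Newcombe 95% intervals, the limit beside a count of 0 is 3 counts of the total, and with 1 list for each DNA no p-value was computed. Regions named were the 3 chains with the highest lowest score, the 3 with the most members (ties by lowest score), the 3 pairs with the highest lower score with separate TKO peaks and the 3 without, the 5 genes with most chains, and chains within 20 kb of the genes whose regions the study shows; exceptions are marked, and 1 of the 3 highest chains is not reported here. Alternatives covered the gap limit, score thresholds, the overlap required, the isolation distance, tract minimums, the CpG window and the promoter length.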

Additional observations from a re-analysis of the deposited data

How the results depend on the processing

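Of 27 alternative values, 7 stayed inside the interval of the share or within 1.5 times the count, and 20 moved; shares and counts have no sign to reverse. The number of neighbouring peaks was 1401, 13376 and 27278 at gap limits of 100, 500 and 1000 bp. Their share over a TKO peak was 6.42% at 100 bp, 6.58% with at least 50% of the peak covered, 10.1% at SssI scores of 50 or more and 15.1% counted by chain, which by construction is higher. For isolated peaks it was 7.76%, 6.25% and 4.10% at 5, 20 and 50 kb and 6.04% with 50% covered. With tract minimums of 10, 16 and 24 bp, 97.5%, 94.2% and 85.2% of neighbouring and 99.0%, 97.3% and 91.9% of isolated peaks held a tract, so the order of the groups was kept. Within 100 bp of the midpoint, 35.2% of neighbouring and 36.4% of isolated peaks held no CpG, a smaller difference than over whole peaks; the second value was added after seeing the data. Promoters of 1000 bp held 2.498% of neighbouring peaks. A tract lay in 13.1% of gaps when pairs sharing 5% or more of their words were left out, also added after seeing the data. The cause of these shifts was not tested. No paired analysis was possible because each list used here holds the peaks of pooled duplicates, which also leaves no replicate to leave out. Limits set by depth could not be computed from the lists.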

Other observations

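On the X chromosome, which the autosomal rule leaves out, 122 of 6445 SssI peaks had another within 200 bp, or 1.89% (95% Wilson interval 1.59 to 2.26%), beside 1.91% (1.63 to 2.24%) on chromosome 12, the lowest autosomal share. Of these 122, 91.8% (85.6 to 95.5%) held a tract, and 0 lay over a TKO peak, which allows a share of up to 2.46% at a limit of 3 counts. Of the 14694 TKO peaks in the whole list, 14554 lay on autosomes, so few were left for other chromosomes. The share over all X peaks was not computed, so the 0 is not compared with the autosomal shares. On the Y chromosome 0 of 46 SssI peaks had another within 200 bp.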
